A study of Mus musculus with 6 samples.

Results

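The Mirg miRNA cluster, which runs from miR-379 past miR-410, is the distal part of the imprinted Dlk1-Dio3 region on mouse chromosome 12, where the long non-coding RNA Mirg is annotated. Its members were taken by name, as any arm of 38 miRNA stems from miR-379 to miR-3072, and the rule used no measured value. It found 72 rows for 36 hairpins among 1573 rows of known mouse miRNAs. The stems miR-544 and miR-654 matched no row. Each of the 36 hairpins had a row for its 5p and its 3p arm, and no row was shared by several miRNAs.

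The source of the RNA was primary peritubular myoid cells from C57BL/6J mice, the contractile cells that ensheath the seminiferous tubules of the testis. All cells were grown in DMEM/F12 with 10% fetal bovine serum. The 3 untreated libraries carry the treatment label none, and the 3 ET1 libraries come from cells given 50 nM endothelin-1, a peptide that makes smooth muscle contract, for 5 min at 37 °C. The labels give neither the age of the animals nor whether the libraries of a group came from separate cultures, so p-values measure the spread between libraries, which may be technical. The comparison asks how the small RNAs of these cells differ after a short exposure to ET1.

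miRNAs are short RNAs that guide Argonaute proteins to messenger RNAs, mostly through the bases near their 5′ end called the seed. Each hairpin can release an RNA from its 5′ side (the 5p arm) and one from its 3′ side (the 3p arm), of which usually one is kept. In the Dlk1-Dio3 region the non-coding transcripts and their miRNAs are expressed from the maternal chromosome, while Dlk1, Rtl1 and Dio3 are expressed from the paternal one. The cluster is found in placental mammals only, is expressed in embryo, placenta and brain, and in neurons is transcribed under Mef2. As bulk libraries were measured, fewer cells of a type and less RNA per cell cannot be told apart.

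The mature sequences of 68 of the 72 arms were found in RefSeq (GRCm38.p6). The arms miR-376c-3p, miR-485-5p, miR-487b-3p and miR-539-3p were not matched. Arms with large fold changes in either direction are shown 5′ to 3′ with the seed (bases 2 to 8) in capitals, with some arms of the same hairpin. miR-376c-5p and miR-379-3p stand beside the arms whose seed they share.
miR-3072-5p: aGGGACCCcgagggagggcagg
miR-3072-3p: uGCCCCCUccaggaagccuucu
miR-485-3p: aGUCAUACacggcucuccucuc
miR-300-3p: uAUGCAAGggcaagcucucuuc
miR-300-5p: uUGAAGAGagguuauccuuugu
miR-134-5p: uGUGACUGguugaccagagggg
miR-134-3p: cUGUGGGCcaccuagucacc
miR-543-3p: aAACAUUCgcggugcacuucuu
miR-543-5p: aAGUUGCCcgcguguuuuucg
miR-376b-5p: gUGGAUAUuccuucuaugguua
miR-376b-3p: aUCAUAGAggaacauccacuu
miR-376c-5p: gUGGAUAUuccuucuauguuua
miR-411-3p: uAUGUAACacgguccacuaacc
miR-379-3p: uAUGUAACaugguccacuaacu
Some of the other abundant arms are shown next.
miR-541-5p: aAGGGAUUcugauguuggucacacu
miR-411-5p: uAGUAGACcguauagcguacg
miR-667-3p: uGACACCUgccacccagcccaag
miR-379-5p: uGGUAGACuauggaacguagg

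The 68 matched arms carried 62 different seeds, so the cluster is a set of mostly distinct seeds rather than copies of one miRNA. Only 6 seeds were shared within it, each by a pair of arms. miR-379-3p and miR-411-3p share AUGUAAC and differ at 2 of 22 bases (U10C and U22C, from miR-379-3p to miR-411-3p, counted from the 5′ end). miR-376b-5p and miR-376c-5p share UGGAUAU and differ by G19U alone, counted in the same way, so the split of tags between these arms is uncertain. The remaining pairs were miR-299a-3p with miR-299b-3p, miR-1193-5p with miR-379-5p, miR-1197-5p with miR-758-5p, and miR-410-5p with miR-494-5p. miR-299b-3p equals the first 18 bases of miR-299a-3p, and miR-299b-5p equals miR-299a-5p without its first base. The split of tags between the miR-299a and miR-299b arms is therefore uncertain too. Of the matched arms, 11 had the seed of a mouse miRNA outside the list, such as miR-329-3p with miR-362-3p and miR-377-5p with miR-672-5p. The arms were 18 to 25 bases long, with a GC content of 23.81% to 77.27% and a median of 47.62%. miR-3072-5p held the highest GC content and miR-369-3p the lowest.

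In GRCm38.p6 the matched hairpins of the members lie between positions 109709060 (the start of Mir379) and 109747960 (the end of Mir3072), a span of 38.9 kb. Of the 35 with a hairpin entry, 34 are on the plus strand and Mir299b is on the minus strand, opposite Mir299a. The GENCODE M21 model of Mirg covers positions 109729764 to 109749460, so 21 of the hairpins lie upstream of it, 9 overlap one of its exons and 4 lie in its introns. Mir134 (109734139 to 109734209), Mir485 (109734902 to 109734974) and Mir3072 (109747878 to 109747960) overlap Mirg exons. Mir541 (109742409 to 109742498) lies in a Mirg intron. Mir411 (109710175 to 109710256), Mir543 (109717258 to 109717333), Mir376b (109723458 to 109723539) and Mir300 (109724313 to 109724391) lie upstream of the model.

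Libraries held 18127265 to 20895432 tags, of which known miRNAs made up 30.1% to 45.6% in untreated and 22.6% to 25.5% in ET1 libraries. Fragments of rRNA made up 3.22% to 5.63% and 7.12% to 11% of the tags. The smooth muscle markers miR-143 and miR-145a (4 of 4 arms counted) summed to 20400 to 27700 CPM (tags on the counts-per-million scale, relative to known miRNA tags and scaled by TMM) in untreated and 13000 to 15500 in ET1 libraries. Endothelial miR-126a (2 arms) summed to 1110 to 1880 CPM and 114 to 163 CPM, and 1 of its arms fell. Blood cell markers (5 arms) summed to 325 to 954 CPM and 78.7 to 338 CPM, with overlap. Of the 3 tested, 2 had a negative and 1 a positive fold change, and 1 fell. Epithelial and Sertoli markers (6 arms) summed to 1000 to 1560 CPM and 692 to 2010 CPM. Germ cell markers (3 arms) summed to 70.6 to 123 CPM and 146 to 534 CPM. No arm of these lists was at 0 in all libraries. The part of these differences in the results on the cluster was not tested. A fit with the known miRNA share as a covariate was run. It cannot tell this share from treatment, because the share did not overlap between the groups.

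The cluster was a minor part of the miRNAs of these cells, and its share of known miRNA tags, without TMM scaling, was higher in the ET1 libraries. Its 72 rows summed to 0.273%, 0.197% and 0.245% of known miRNA tags in untreated libraries and to 0.576%, 0.326% and 0.478% in ET1 libraries. The means were 0.238% ± 0.0386 and 0.46% ± 0.126 (SD, n = 3 each), a ratio of 1.93, and the groups did not overlap. These shares do not carry the TMM factors, which were 0.816 to 0.955 in untreated and 1.08 to 1.181 in ET1 libraries. With the factors applied the groups overlapped, as ET1 library 2 lay below untreated library 1. Read as a share of all tags of the library the groups overlapped. The values were then 0.106%, 0.0898% and 0.0739% in untreated and 0.147%, 0.0737% and 0.118% in ET1 libraries, with a ratio of 1.26. ET1 library 2 was the lowest of its group in each reading.

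**Figure D1:**
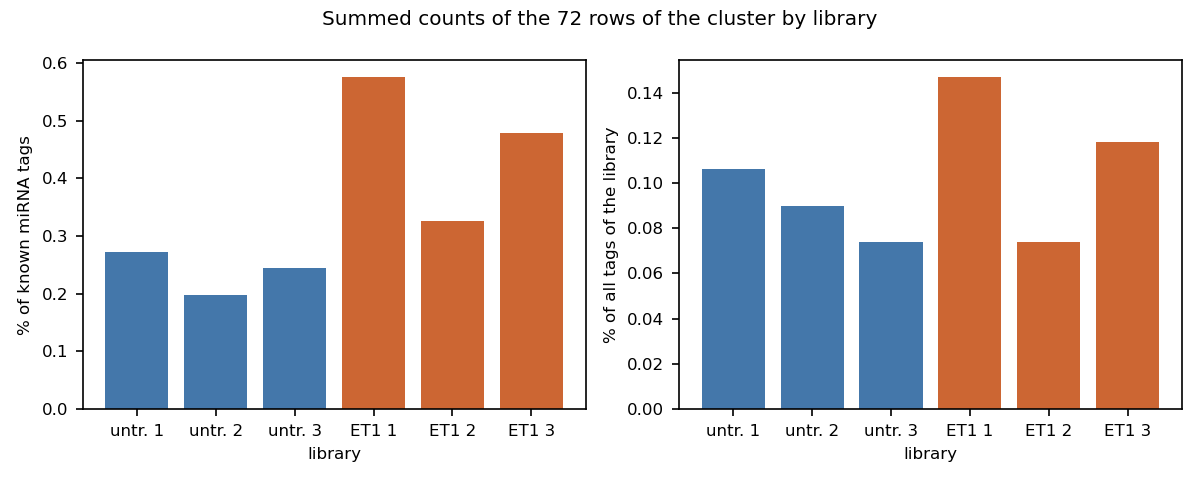
Summed counts of the 72 rows of the Mirg cluster in each library (untr., untreated), as a percentage of known miRNA tags (left) and of all tags (right), both without TMM scaling. On the left every ET1 bar (0.326% to 0.576%) is above every untreated bar (0.197% to 0.273%), and on the right the groups overlap.

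Most of these tags came from few arms. The 5 most abundant rows held 66.1% of the tags of the cluster and the 10 most abundant 86.2%. Of the 72 rows, 9 had a mean level of at least 100 CPM, 20 lay between 10 and 100 CPM and 43 lay under 10 CPM. The most abundant arm, miR-541-5p, ranked 88 among the known miRNA rows by mean level. The share of the 5 highest rows of a library was 66.6% to 67.5% in untreated and 68.2% to 68.5% in ET1 libraries.

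Over all tested members, most arms had positive log2 fold changes and 1 passed the test. The expression filter kept 52 of the 72 rows, and edgeR's quasi-likelihood test was adjusted over all 616 known miRNAs kept. The log2 fold change (ET1 against untreated) was above 0 in 43 of the 52 and below 0 in 9, with a median of 0.68 and a range of −1.73 to 2.33. The median over the 616 was 0.006, with 311 positive and 305 negative. After adjustment 1 of the 52 arms rose, miR-3072-5p, and none fell, against 1.3% of the 616 called higher and 0.487% called lower. At an unadjusted edgeR p under 0.05 there were 14 higher and 1 lower of 52, against 9.42% and 8.93% of the 616. DESeq2 called 5 higher and 1 lower of the 51 with an adjusted p, which is 9.8% and 1.96% against 4.02% and 2.51% of 597 miRNAs.

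All ET1 libraries were above all untreated ones, on the TMM scale, in 20 of the 52 arms, and below them in 2. These are 38.5% and 3.85%, against 12.5% and 11% of the 616 miRNAs. With all 72 rows counted, 24 were higher and 2 lower without overlap, which is 33.3% and 2.78% against 7.25% and 6.36% of all 1573 rows. Scaled to library size alone, 28 of the 52 were higher without overlap (53.8% against 20.9% of the 616) and 1 lower (1.92% against 5.03%). Scaled to all tags, 13 were higher (25% against 8.44%) and 2 lower (3.85% against 15.7%). Both of these readings were chosen after seeing the data. No tested row had 10 counts in all ET1 libraries and fewer than 10 in every untreated one. There were 4 rows with 10 counts in all ET1 but not all untreated libraries, and 3 the other way around.

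The values moved with the scaling and the rows fitted. With library sizes alone the median of the 616 miRNAs was 0.37 and that of the 52 arms 1.05, with 48 positive and 8 called higher (15.4% against 6.17% of the 616) and none lower (against 0.487%, 26 of the arms at an unadjusted edgeR p under 0.05). With all small RNA rows fitted together the median of the known miRNAs was −0.46 and that of the arms 0.12, with 30 positive and none called (6 at an unadjusted edgeR p under 0.05). That fit called 0% of the 617 known miRNAs it tested in either direction, and it changed the rows behind the dispersion and the adjustment as well as the scaling. A change of scaling shifts all rows by nearly the same amount. The arms therefore kept a similar distance from the median of all tested miRNAs by construction, while their distance from 0 differed.

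**Figure D2:**
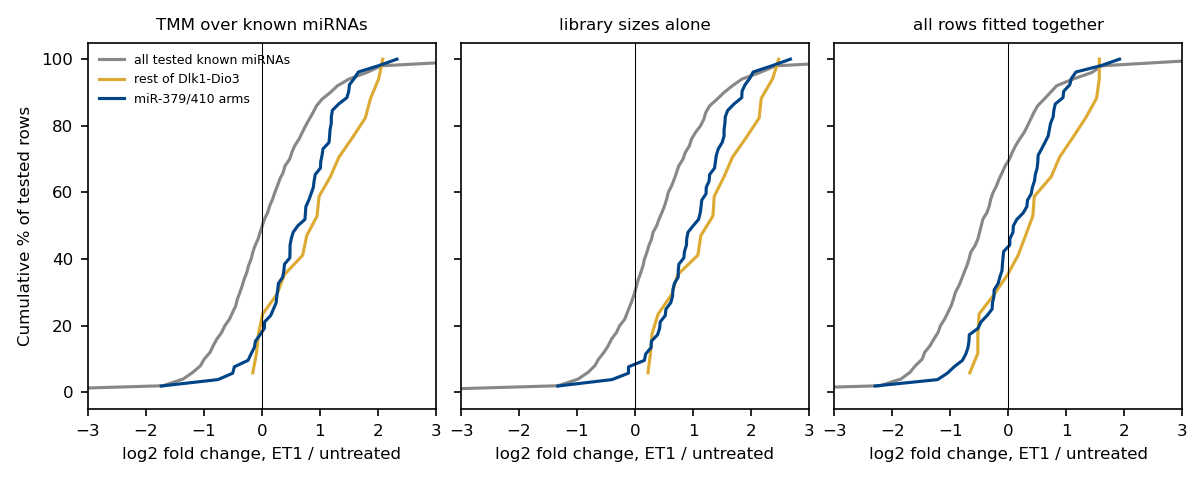
Cumulative percentage of tested rows (y axis) by log2 fold change (x axis, ET1 against untreated) for the Mirg arms, the remaining Dlk1-Dio3 arms and all tested known miRNAs, in 3 edgeR fits. The curve of the cluster lies to the right of that of all miRNAs over most of its length, while all curves move together between the fits, with cluster medians of 0.68, 1.05 and 0.12.

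miR-3072-5p, from the last hairpin of the cluster, was the arm that rose. Its counts were 6, 8 and 12 in untreated and 28, 33 and 45 in ET1 libraries, or 0.846, 1.13 and 2.01 CPM against 5.26, 6.97 and 7.90 CPM. Every ET1 library was above every untreated one, at a low level. It is among the 4 tested rows with 10 counts in all ET1 but not all untreated libraries. The ET1 libraries thus carried it through the expression filter. The difference was 5.03-fold (log2 fold change 2.33, SE 0.55, edgeR adjusted p = 0.047, 3 of 3 ET1 libraries higher). With 1 of untreated libraries 1 and 2 left out it did not pass (edgeR adjusted p 0.15 and 0.19), nor without 1 of ET1 libraries 2 and 3 (0.074 and 0.13). It also did not pass after an offset for the GC content of the mature sequence (log2 fold change 1.36, edgeR adjusted p = 0.16). It passed in 8 of the 17 alternatives that tested it, DESeq2 among them and limma-voom not (adjusted p 0.0079 and 0.056), and the adjusted p reached 0.75. Its paired arm miR-3072-3p stood at 9.45, 11.9 and 29.4 CPM in untreated and at 25.4, 19.4 and 13.3 CPM in ET1 libraries, with overlapping groups (log2 fold change 0.20, edgeR adjusted p = 0.87).

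Next by fold change were 3 arms at an edgeR adjusted p of 0.079, which did not pass, with no overlap between groups. miR-485-3p, of a hairpin known in neurons for restraining the synaptic vesicle protein Sv2a, stood at 1.97, 4.67 and 7.72 CPM in untreated and at 24.0, 13.95 and 20.2 CPM in ET1 libraries (log2 fold change 2.02, SE 0.53). Its adjusted p ran from 0.00068 to 0.75 over the alternatives, and it passed in 8 of the 18, among them limma-voom and DESeq2. miR-300-3p stood at 7.33, 4.67 and 5.37 CPM against 20.7, 13.1 and 21.4 CPM in ET1 libraries (log2 fold change 1.66, SE 0.45). miR-134-5p, which in neurons represses Limk1 and limits the size of dendritic spines, stood at 159, 96.3 and 104 CPM against 368.7, 195 and 522 CPM (log2 fold change 1.59, SE 0.44). Among them miR-134-5p was the most abundant, with means of 119.9 ± 34.1 CPM (untreated) and 362 ± 163 CPM (ET1; SD, n = 3 each). In each of these arms ET1 library 2 was the lowest of its group.

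miR-543-3p, a repressor of N-cadherin in neural progenitors, had the same edgeR adjusted p of 0.079 and did not pass. Its level was 43.4, 33.6 and 58.7 CPM in untreated and 150.3, 116 and 117 CPM in ET1 libraries (log2 fold change 1.5, SE 0.42). All ET1 libraries were above all untreated ones. miR-411-3p stood at 10.0, 9.06 and 4.70 CPM against 34.0, 19.2 and 14.7 CPM (log2 fold change 1.51, edgeR adjusted p = 0.11). miR-380-3p stood at 4.94, 2.41 and 2.18 CPM against 7.89, 8.45 and 10.2 CPM (log2 fold change 1.47, edgeR adjusted p = 0.11). Both were without overlap and did not pass.

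Both arms of the miR-323 hairpin were among the 10 largest positive fold changes. miR-323-3p stood at 6.06, 6.51 and 3.52 CPM in untreated and at 12.8, 14.6 and 13.2 CPM in ET1 libraries (log2 fold change 1.32, edgeR adjusted p = 0.11). miR-323-5p stood at 7.33, 6.09 and 14.9 CPM against 20.7, 19.0 and 25.3 CPM (log2 fold change 1.20, edgeR adjusted p = 0.18). Neither arm overlapped between groups. miR-377-5p stood at 15.4, 10.5 and 11.2 CPM against 33.8, 15 and 37.4 CPM, where ET1 library 2 lay within the untreated range (log2 fold change 1.22, edgeR adjusted p = 0.18).

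Of the 10 most abundant arms none passed, and they held both large and small fold changes, from miR-134-5p and miR-543-3p above to those that follow. miR-541-5p stood at 509, 454 and 338 CPM in untreated and at 1366, 655 and 681 CPM in ET1 libraries (log2 fold change 1.05, SE 0.40, edgeR adjusted p = 0.15). The groups did not overlap, and ET1 library 1 stood farther above the other ET1 libraries than those stood above the untreated ones. Without ET1 library 1 its log2 fold change was 0.60. miR-411-5p stood at 729, 536 and 505.5 CPM against 785, 430.6 and 752 CPM, and the groups overlapped (log2 fold change 0.15, edgeR adjusted p = 0.87). miR-485-5p stood at 457, 266 and 419 CPM against 607, 411.4 and 477.5 CPM (log2 fold change 0.39, edgeR adjusted p = 0.64), also with overlap.

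miR-667-3p stood at 124.7, 108 and 337.2 CPM in untreated and at 283, 373 and 342 CPM in ET1 libraries, so that untreated library 3 lay among the ET1 libraries (log2 fold change 0.81, edgeR adjusted p = 0.37). Without untreated library 3 its log2 fold change was 1.53, and with the known miRNA share as a covariate it was −0.53. miR-409-3p stood at 108, 82.8 and 99.65 CPM against 285, 163 and 138 CPM, without overlap (log2 fold change 1.01, edgeR adjusted p = 0.20). miR-154-5p, which gives its name to the largest sequence family of the cluster, stood at 203, 125.5 and 133.7 CPM against 217, 95.7 and 164 CPM (log2 fold change 0.046, edgeR adjusted p = 0.97).

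**Figure D3:**
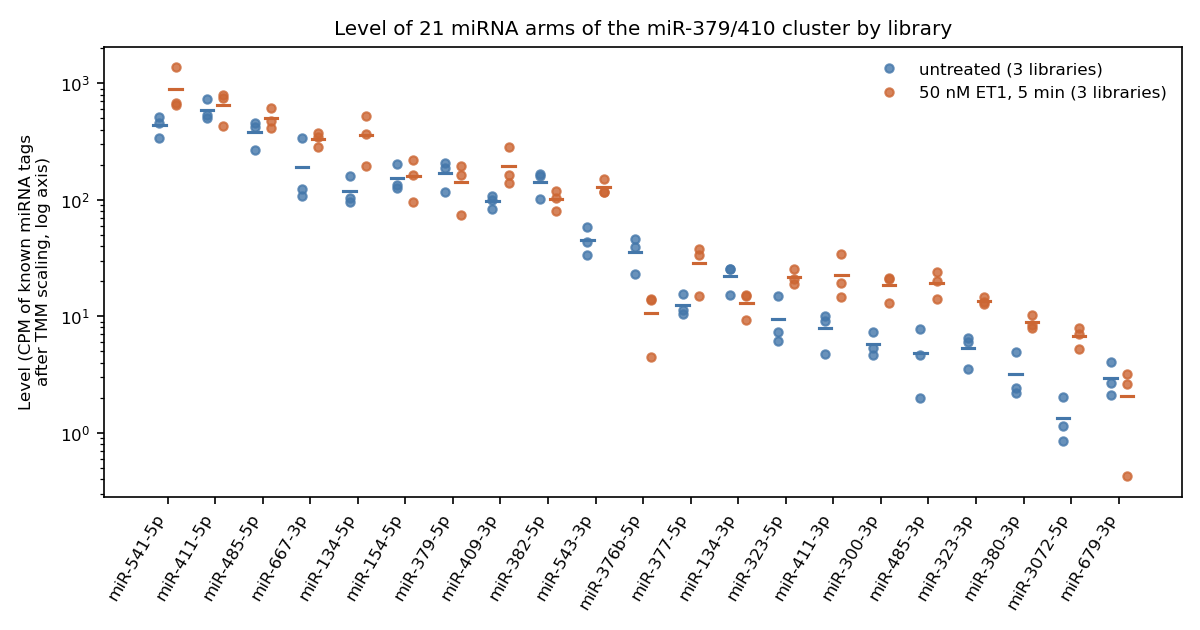
Level of 21 arms in each library (log axis, TMM-scaled CPM over known miRNA tags), with each library as a point and the group mean as a bar, ordered by mean level. The untreated and ET1 points are apart for miR-543-3p, miR-300-3p, miR-485-3p and miR-3072-5p on the higher side and for miR-376b-5p and miR-134-3p on the lower side, and they overlap for miR-411-5p and miR-154-5p.

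At the lower end stood miR-376b-5p, whose paired 3p arm is known to restrain the autophagy genes Atg4c and Becn1. It stood at 45.55, 39.1 and 22.8 CPM in untreated and at 13.7, 4.44 and 14.0 CPM in ET1 libraries, without overlap (log2 fold change −1.73, SE 0.54, edgeR adjusted p = 0.091, 3 of 3 ET1 libraries lower). It passed in 3 of 18 alternatives, among them DESeq2 and edgeR without a filter (adjusted p 0.036 and 0.03), with adjusted p from 0.0044 to 0.9 over the 18. Its paired arm miR-376b-3p had 1, 5 and 2 counts in untreated and 10, 4 and 0 counts in ET1 libraries, too few to be tested. The other 5p arms of the miR-376 hairpins were close to absent. miR-376a-5p had 3, 0 and 2 counts in untreated libraries, miR-376c-5p had 1, 0 and 0, and neither had a count in an ET1 library.

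miR-134-3p stood at 25.7, 15.3 and 25.5 CPM in untreated and at 14.8, 9.30 and 15.1 CPM in ET1 libraries (log2 fold change −0.76, edgeR adjusted p = 0.38), lower in 3 of 3 ET1 libraries and without overlap. miR-382-5p stood at 161, 165.5 and 100.5 CPM against 118.5, 80.5 and 102.5 CPM (log2 fold change −0.50, edgeR adjusted p = 0.54). miR-679-3p stood at 2.68, 2.12 and 4.03 CPM against 3.19, 0.423 and 2.63 CPM (log2 fold change −0.47, edgeR adjusted p = 0.75). miR-379-5p, from the first hairpin of the cluster and known in kidney for repressing Edem3 of the endoplasmic reticulum stress response, stood at 204.9, 186 and 115 CPM against 161.5, 73.95 and 193 CPM (log2 fold change −0.24, edgeR adjusted p = 0.82). The groups overlapped in the last 3 arms, and the sign of miR-379-5p was positive with library sizes alone (0.16).

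Since both arms of a hairpin are counted in the same library, their ratio does not depend on the scaling between libraries. Effects tied to the sequence of an arm, such as its GC content, need not cancel in it. Of 31 hairpins with at least 100 counts over both arms, the 5p arm held more than 50% of the counts in every library for 12, the 3p arm for 14, and the major arm varied between libraries for 5 (miR-323, miR-381, miR-412, miR-494 and miR-495). Every ET1 library had a higher 5p share than every untreated one for 2 hairpins, and a lower one for 4. These are 6.45% and 12.9% of the 31, against 5.41% and 7.77% of all 296 known hairpins read in the same way. The shares of the cluster are near this background.

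The hairpins whose arm use did not overlap between groups are given with their values, as a description. In miR-134 the 5p arm made up 86.1%, 86.3% and 80.4% of the counts in untreated and 96.1%, 95.5% and 97.2% in ET1 libraries. Here the major arm stood higher and the minor arm lower in ET1 libraries, so the arms of the same hairpin had log2 fold changes of opposite sign. In miR-543 the 5p share was 48.8%, 44.2% and 35.4% in untreated and 22.0%, 20.4% and 28.4% in ET1 libraries. In miR-3072 it was 8.22%, 8.70% and 6.42% against 17.2%, 26.4% and 37.2%. The arm with the higher share in ET1 libraries was the minor one in miR-3072 and the major one in miR-134 and miR-543.

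In miR-485 the minor 3p arm made up more in ET1 libraries, as the 5p share was 98.7% ± 0.773 in untreated and 96.3% ± 0.397 in ET1 libraries (SD, n = 3 each). In miR-411 the 5p share was 98.7% ± 0.372 against 96.6% ± 1.32, and in miR-300 it was 6.25% ± 0.781 against 0.866% ± 0.894. The miR-300 share rests on few tags, as miR-300-5p had 4, 2 and 2 counts in untreated and 2, 0 and 1 in ET1 libraries. Of the 20 hairpins with both arms tested, 14 had positive log2 fold changes in both arms and none had negative values in both. In the other 6 (miR-134, miR-299a, miR-329, miR-369, miR-379 and miR-496a) the signs were opposite.

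**Figure D4:**
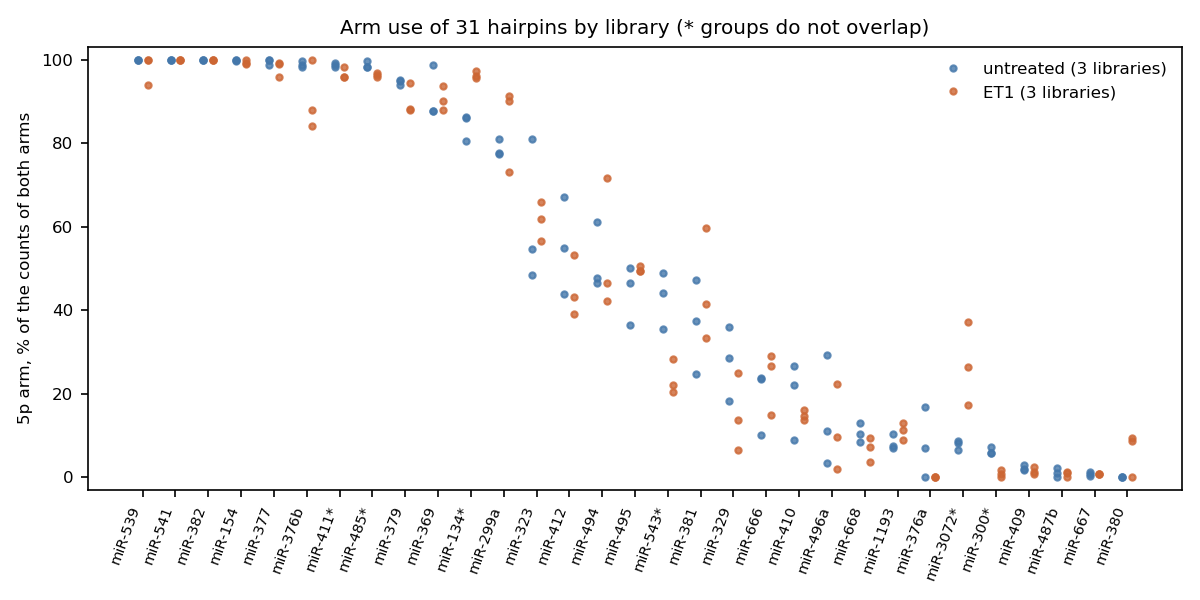
Share of the 5p arm in the counts of both arms (y axis, %) for 31 hairpins, with each library as a point and an asterisk where the groups do not overlap. miR-134 lies at 80.4% to 86.3% in untreated and at 95.5% to 97.2% in ET1 libraries, and miR-543 lies lower in ET1 libraries (20.4% to 28.4%) than in untreated ones (35.4% to 48.8%).

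Fold changes showed little order along the chromosome. Across the 50 tested arms with a hairpin position, Pearson's r between the log2 fold change and the distance from Mir379 was −0.024 and Spearman's rho −0.068. Arms of hairpins upstream of the Mirg model had a median of 0.81 (29 tested, 24 positive), and those within it a median of 0.39 (21 tested, 17 positive). The 5p arms had a median of 0.44 (22 of 26 positive) and the 3p arms of 0.76 (21 of 26 positive). These differences were not tested. With the mean level the r was −0.058 over 52 arms. With the GC content of the mature arm it was 0.27 (rho 0.19) over 50 arms, beside 0.34 (rho 0.35) over the 514 tested miRNAs with a sequence. Arms share their libraries and in part their hairpins, so these correlations are descriptions.

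**Figure D5:**
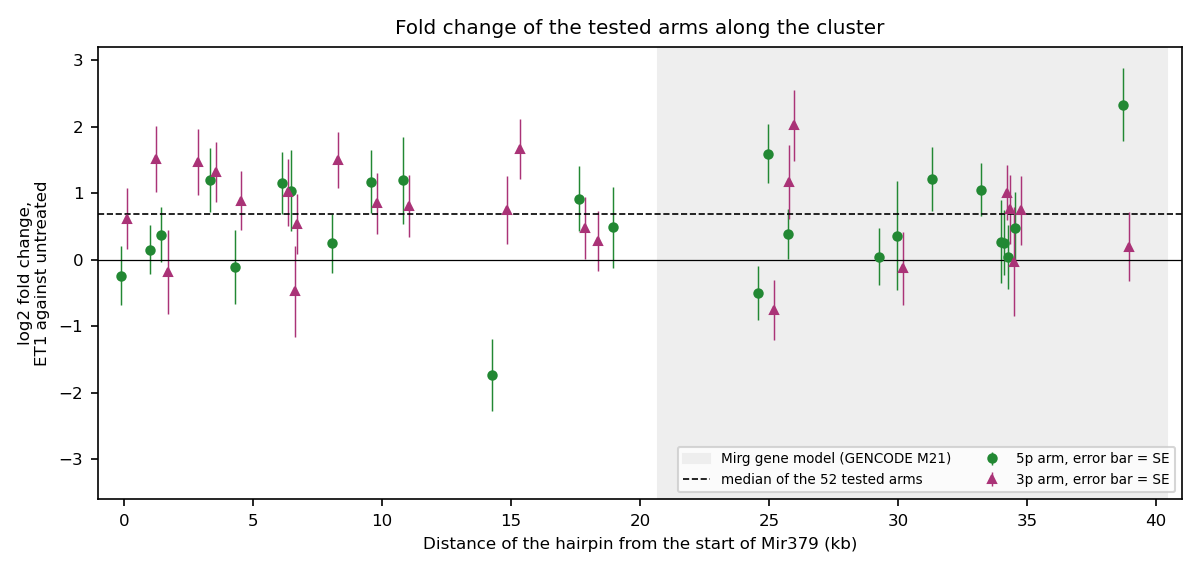
log2 fold change (ET1 against untreated, error bar SE) of the 50 tested arms with a hairpin entry, by distance of the hairpin from the start of Mir379. Most points lie above 0 both upstream of the Mirg model and within it. The lowest is miR-376b-5p (−1.73) upstream of the model and the highest miR-3072-5p (2.33) near its end.

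The remaining Dlk1-Dio3 miRNAs, listed by stems of the Meg3, anti-Rtl1 and Rian part, had 34 rows, of which 17 were tested. Their median log2 fold change was 0.95, with 14 positive, 2 that rose (miR-540-3p and miR-433-3p) and none that fell in edgeR. The 2 are 11.8% of the 17, against 1.3% of all tested miRNAs. The groups did not overlap in the higher direction for 8 of them (47.1% against 12.5%). The Mirg arms thus lay on the same side with a median of 0.68, and a difference between the parts was not tested. The highest arm there was miR-127-3p, which regulates the paternally expressed Rtl1, at a mean of 9714 CPM in untreated libraries. The next was miR-433-3p at 495.3 CPM, below the 590.4 CPM of miR-411-5p, the highest of the Mirg cluster in that group.

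The 20 rows that were not tested had at most 38 counts over all libraries. miR-758-3p, a repressor of the cholesterol transporter Abca1, had 2, 1 and 0 counts in untreated and 6, 9 and 17 counts in ET1 libraries. miR-377-3p had 0, 1 and 0 counts against 2, 3 and 2. miR-380-5p had 0 counts in each untreated library and 4, 0 and 6 in the ET1 libraries. miR-382-3p, the pair of the abundant miR-382-5p, had no count in any library, which allows up to 0.423 to 0.634 CPM per library (3 counts, for counting error only).

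In the authors' deposited table all 52 tested arms had a log2 ratio, 48 of them positive and 4 negative (miR-134-3p, miR-376b-5p, miR-382-5p and miR-679-3p). In the authors' deposited table the log2 ratio was above the edgeR value by 0.31 to 0.42 in these arms, with a median of 0.36, and 5 arms that were negative in edgeR were positive there, among them miR-379-5p. At a deposited q under 0.05 that table called 51 members higher and 4 lower of 65 with a q, against 48% and 19.5% of 1147 known miRNAs. A deposited q could lie below its own p, so these calls include arms with a deposited p over 0.05. They are miR-496a-3p, called higher (deposited p 0.147, q 0.0493), and miR-376a-5p, called lower (deposited p 0.101, q 0.0356). The authors' deposited table gave log2 ratios of 2.72 for miR-3072-5p, 1.97 for miR-134-5p and −1.38 for miR-376b-5p. Its test compared counts pooled over a group and so did not use replicate spread.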

How the data were processed

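Small RNA libraries were made from TRNzol total RNA by the BGI protocol, per the labels' protocols. Bowtie2 and mm10 are named, per the submitters' processing notes. The aligner version and the treatment of tags with several matches are not given in the sources used here. The authors deposited raw tag counts per row and library, and beside them values headed TPM that are an RPM over all rows, which were not tested because the counts were given. A second deposited table holds the authors' pooled counts, mean RPM, log2 ratio, p-value and q-value. The 4 rows of exon, intron, intergenic and repeat totals (44.3% to 61.4% of the tags) were fitted as rows in no model. They are part of all tags of a library, and so of the known miRNA share used as a covariate.

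Known miRNA counts were fitted in edgeR 4.0.16 (R 4.3.3): TMM scaling, filterByExpr given the group, quasi-likelihood fitting with the robust option, a two-sided test, Benjamini-Hochberg adjustment over all 616 miRNAs and a threshold of 0.05. The fit was tested on simulated data. The SE is the log2 fold change over the root of F. The members, lists and tests were chosen with earlier results of these data known. Arms were named if they passed, were among the 10 most abundant, the 10 highest or the 5 lowest by log2 fold change, or paired with one of these. Other members named in the text (miR-376a-5p, miR-376c-5p and miR-758-3p) were chosen after their values were seen. Alternatives were DESeq2 1.42.0, limma-voom 3.58.1, other scalings, filters and covariates, a GC offset and leaving out each library. Depth per library is given in the report. Titles number the libraries 1 to 3 in both groups without saying that a number marks a shared culture.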

Additional observations from a re-analysis of the deposited data

How the results depend on the processing

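The cluster's median log2 fold change stayed positive in all 18 alternatives (0.12 to 1.05). It was 1.05 with library sizes alone, 0.121 with all rows fitted together and 0.523 to 0.778 with 1 library left out. Of the arms (in brackets the share of all known miRNAs in the same fit), 8 were called higher with library sizes alone (6.17%), 5 in DESeq2 (4.02%), 3 without a filter (1.61%), 2 with the GC offset (0.982%), 9 with the GC offset and the replicate block (5.5%), and 0 with all rows together (0%), under a 10 CPM filter in 3 libraries (1.73%) or with a covariate for the known miRNA share (0%). In those fits 6, 12 and 5 arms had an unadjusted edgeR p under 0.05. With 1 library left out 0 to 2 were called higher (0% to 3.1%) and 0 lower (0.302% to 1.58%). The count lower was 1 without a filter (1.1%) and in DESeq2 (2.51%), and 2 with the GC offset and the block (4.91%). The cause of these changes was not tested, and the known miRNA share cannot be told apart from treatment, as it did not overlap between groups. The replicate block alone called 2 higher (2.27%) and 0 lower (1.14%). Same-numbered libraries correlated by 0.275, 0.06 and 0.253 in their deviations from the group means, and every library correlated best with its own number, a hint from the data and not from the design. The ratio of summed levels, 1.93 over known miRNA tags without TMM scaling, was 1.26 over all tags and 1.69 to 2.21 with 1 library left out. The count of hairpins with a higher 5p share, 2, was 1 at a minimum of 1000 counts and 2 to 6 with 1 library left out, and the count with a lower share, 4, was then 5 to 9, as fewer libraries separate more easily.

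With all rows together 13 of the 52 arms turned from positive to negative, and in the other alternatives at most 9 turned either way. Values are given only for the arms chosen by the naming rule. With all rows together, miR-411-5p was at −0.362, miR-485-5p at −0.076, miR-154-5p at −0.467, miR-3072-3p at −0.172, miR-409-5p at −0.244 and miR-543-5p at −0.241. With the known miRNA share as a covariate, miR-485-5p was at −0.013, miR-667-3p at −0.531, miR-379-5p at 0.609, miR-382-5p at 0.261 and miR-3072-3p at −0.822. miR-379-5p was at 0.163 with library sizes alone, miR-154-5p at −0.026 without a filter, and miR-3072-3p at −0.032 with the GC offset and −0.07 with the block added. With 1 library left out, miR-154-5p ran from −0.273 to 0.303, miR-3072-3p from −0.081 to 0.881, miR-411-5p from −0.026 to 0.35, miR-409-5p from −0.023 to 0.661 and miR-379-5p from −0.54 to 0.037. Depth limits the 43 rows under 10 CPM, miR-3072-5p among them.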
